A study of Arabidopsis thaliana with 6 samples.

Results

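Extensins and proline-rich proteins are structural proteins of the plant cell wall, and 35 Arabidopsis loci of these families were followed in root tips given CLE25 or CLE10 peptide. The loci were taken from a list of extensins, leucine-rich repeat (LRR) extensins, proline-rich proteins and related wall proteins. A locus was measured here where the array's annotation assigned a probe set to that gene alone, which held for 19 of the 35, out of 13356 genes named in this way. Of these 19 genes, 9 were bright enough to be tested, with a mean log2 value over all 6 arrays at or above the 40th percentile of all probe sets, which lies near a signal of 92.3. The other 10 are called dim and are given by their signals.

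Both groups were wild-type Arabidopsis thaliana of the Col-0 accession, the common laboratory strain, grown for 7 days in shaken liquid MS medium at 23 °C in continuous light. Roots of one group received synthetic CLE25 and roots of the other synthetic CLE10, each at 1000 nM for 12 h, and tips of 5 mm were taken for total RNA. There were 3 arrays with CLE25 and 3 with CLE10. No untreated roots were analysed here, so a difference sets one peptide against the other and is no response to either. CLE peptides are secreted signals that plants perceive through receptor kinases, and the comparison was made to find genes through which this pair of peptides acts differently on roots.

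Extensins are secreted proteins of long repeats rich in proline and tyrosine. Prolyl 4-hydroxylases convert their prolines to hydroxyproline, glycosyltransferases add arabinose and galactose, and peroxidases then link the proteins into an insoluble network in the wall. In roots, many extensins and some proline-rich proteins are known from root hairs, the tubular outgrowths of epidermal cells. LRR-extensins carry an LRR domain that binds RALF peptides, and separate members act in vegetative tissues and in pollen. The gene table names many of these loci by locus only, and the classes used here come from general knowledge of the families.

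The values are probe-set signals on a linear scale, and the mean after trimming 2% at each end was 500.05 on all 6 arrays, a global scaling. Across all 13648 probe sets tested, limma called 0 at an adjusted p of 0.05 (0% of those tested), and 575 (4.21%) had an unadjusted p under 0.05. Whether the 3 arrays of a peptide stand for separate cultures is not in the labels. A p here thus reflects array-to-array spread alone, and that spread may be technical. A log2 fold change is the mean of log2(signal + 6.03) with CLE25 minus that with CLE10, given ± its standard error. The added constant makes it understate differences of dim genes. Signals of different probe sets are not comparable with each other, since each depends on its own probes.

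The wall protein genes did not separate as a group by peptide. Of the 9 tested genes, 0 passed in limma, and 1 had an unadjusted p under 0.05. Groups without overlap were seen in 1 of the 9, against 9.18% of all tested probe sets (4.67% with CLE25 higher and 4.51% with CLE25 lower). Mean log2 values were higher with CLE25 in 6 genes and lower in 3, while 49.4% of all tested probe sets were higher. The median log2 fold change over the 9 genes was 0.08, and over all tested probe sets it was -0.0024. The median turned to -0.09 without the CLE25 array of replicate 3, where 3 of the 9 were higher with CLE25, and to -0.13 without the CLE10 array of replicate 2, where 4 were. AT4G38080, a hydroxyproline-rich glycoprotein gene, stood lowest with a log2 fold change of -0.98, and the other 8 lay between -0.29 and 0.24.

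**Figure D1:**
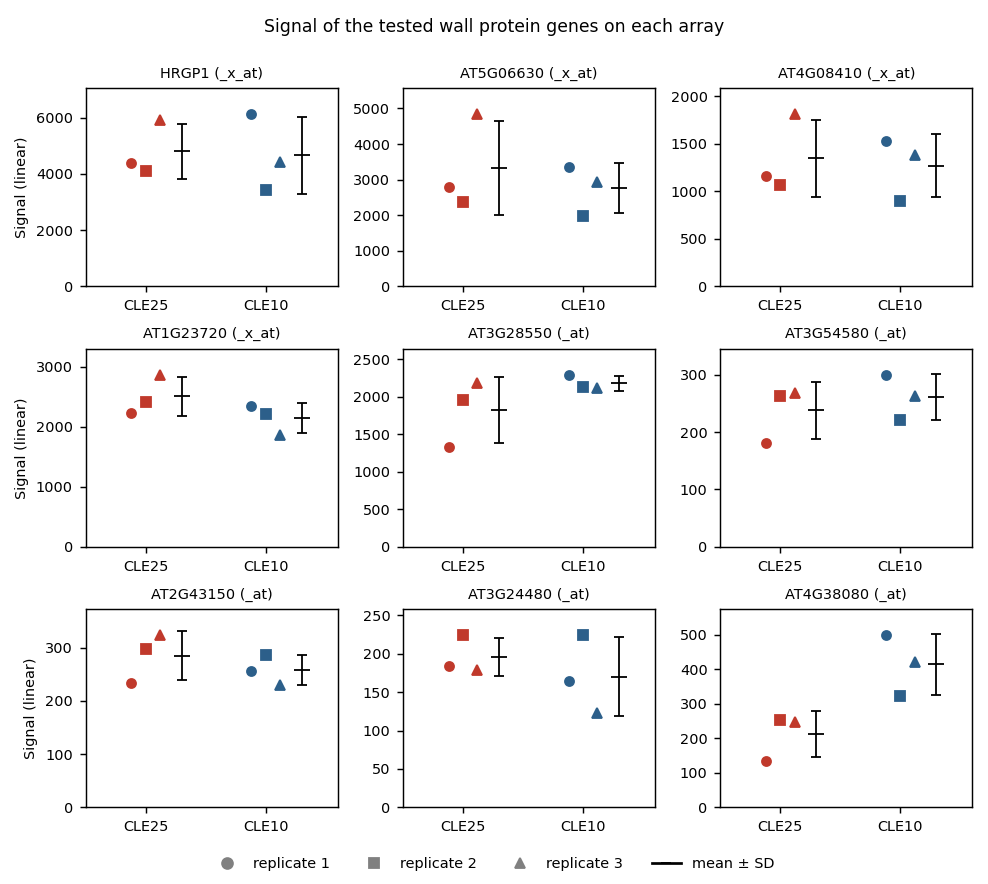
Linear signal of each of the 9 tested wall protein genes, one panel per gene, with the 3 CLE25 arrays left of the 3 CLE10 arrays, replicates by symbol, and the mean ± SD beside them. AT4G38080 is the panel in which all CLE25 arrays (135 to 253) lie below all CLE10 arrays (323 to 499), and the groups overlap in the others.

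AT4G38080 had signals of 135, 253 and 247 on the CLE25 arrays, against 499, 323 and 421 on the CLE10 arrays. All 3 CLE25 arrays lay below all 3 CLE10 arrays, and the CLE25 array of replicate 1 was the lowest and the CLE10 array of replicate 1 the highest. The means were 212 ± 66.4 with CLE25 and 415 ± 88.2 with CLE10 (SD, n = 3 arrays each). The log2 fold change was -0.98 ± 0.23, with a 95% confidence interval from -1.49 to -0.47, so the fitted CLE25 level was 0.507 times the CLE10 level. The limma adjusted p over all tested probe sets was 0.856, with an unadjusted p of 0.00132, so the difference did not pass. An unadjusted p under 0.05 with CLE25 lower was found in 2.3% of all tested probe sets. A log2 fold change this low or lower was seen in 10 of the 13648, or 0.0733%.

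The size of the AT4G38080 difference moved most on leaving out the CLE25 array of replicate 1, where the log2 fold change was -0.69. Without any other single array it ran from -1.15 (CLE10 replicate 2 out) to -0.84 (CLE10 replicate 1 out). Its direction could not turn on leaving out an array, since the groups did not overlap. In same-numbered arrays the log2 difference was -1.84 for number 1, -0.35 for number 2 and -0.75 for number 3. Actin and GAPDH control probe sets at the 3' and the 5' end, which tell how intact the RNA was, did not move alike. For actin the log2 difference of 3' minus 5' was 4.26, 3.76 and 3.49 on the CLE25 arrays of replicates 1 to 3, against 3.40, 3.97 and 3.95 on the CLE10 arrays. For GAPDH it was 0.47, 0.76 and 0.55 on the CLE25 arrays, against 0.65, 0.54 and 0.48 on the CLE10 arrays. The array lowest in AT4G38080 (CLE25 replicate 1) had the highest actin difference, and the array highest in it (CLE10 replicate 1) had the lowest. For GAPDH these arrays had 0.47 and 0.65, and the CLE10 array of replicate 3 was about as low as the first, at 0.48. The group means over both controls were 2.21 ± 0.18 with CLE25 and 2.16 ± 0.12 with CLE10. The part of RNA quality in the result was not tested. In whole root tips, fewer cells of a type and less RNA per cell cannot be told apart.

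The extensins of classical type held 10 of the 19 measured genes, 7 of them tested. In these 7 the log2 fold change ran from -0.29 to 0.24, with 5 above 0 and 2 below, and 0 of the 7 had groups without overlap. HRGP1 (AT3G54590), which encodes a hydroxyproline-rich glycoprotein of the wall, had signals of 4388, 4103 and 5928 with CLE25, against 6125, 3432 and 4423 with CLE10. The groups covered nearly the same range, and both the highest and the lowest array were CLE10 arrays. A log2 fold change of 0.07 ± 0.19 resulted, with an interval from -0.35 to 0.49 and an adjusted p of 0.999 in limma. The sign turned without the CLE25 array of replicate 3 (-0.09) or the CLE10 array of replicate 2 (-0.13), and with array weights (-0.0056).

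AT5G06630, an extensin-like gene, had signals of 2792, 2379 and 4840 with CLE25, against 3343, 1977 and 2941 with CLE10. One CLE25 array, replicate 3, stood above all others, and the other two lay within the CLE10 range. The log2 fold change was 0.24 ± 0.24, the highest of the tested members, with an interval from -0.29 to 0.77, and it was -0.06 without that array. AT4G08410, another extensin-like gene, had 1156, 1069 and 1811 with CLE25, against 1531, 899 and 1381 with CLE10. Here too the CLE25 array of replicate 3 was the highest and the CLE10 array of replicate 2 the lowest, and the log2 fold change was 0.08 ± 0.22. It was -0.16 without that CLE25 array and -0.15 without that CLE10 array, and -0.018 with array weights.

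AT1G23720, a further extensin-like gene, had signals of 2236, 2411 and 2869 with CLE25, against 2346, 2211 and 1866 with CLE10. Means were 2505 ± 327 with CLE25 and 2141 ± 248 with CLE10 (SD, n = 3 arrays each), and the arrays overlapped. The log2 fold change was 0.22 ± 0.12, with an interval from -0.04 to 0.49 and an adjusted p of 0.999 in limma. Without the CLE25 array of replicate 1 its unadjusted p came under 0.05, and the log2 fold change was then 0.30. The value was 0.12 without the CLE25 array of replicate 3 and 0.13 without the CLE10 array of replicate 3.

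AT3G28550 had signals of 1328, 1955 and 2186 with CLE25, against 2297, 2130 and 2117 with CLE10. The CLE10 arrays lay close together and the CLE25 array of replicate 1 was well below the rest. Its log2 fold change was -0.29 ± 0.16, with an interval from -0.63 to 0.06. That value was -0.08 without the CLE25 array of replicate 1, and -0.43 without the CLE25 array of replicate 3, where its unadjusted p came under 0.05.

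AT3G54580, the next gene to HRGP1 on chromosome 3 in the gene table, had signals of 181, 264 and 269 with CLE25, against 300, 220 and 263 with CLE10. It shared with AT3G28550 the low CLE25 array of replicate 1, and its log2 fold change was -0.14 ± 0.18, or 0.04 without that array. These neighbours shared much of their order of arrays. In both, the CLE10 array of replicate 1 was the highest of all 6, and the CLE25 array of replicate 3 the highest with CLE25. They differed in the lowest of all 6 arrays, a CLE25 array in AT3G54580 and a CLE10 array in HRGP1. AT2G43150, a proline-rich extensin-like gene, had 233, 298 and 323 with CLE25, against 256, 286 and 229 with CLE10, and a log2 fold change of 0.14 ± 0.16. On leaving out 1 array that value ran from 0.04 (without the CLE25 array of replicate 3) to 0.27 (without the CLE25 array of replicate 1).

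**Figure D2:**
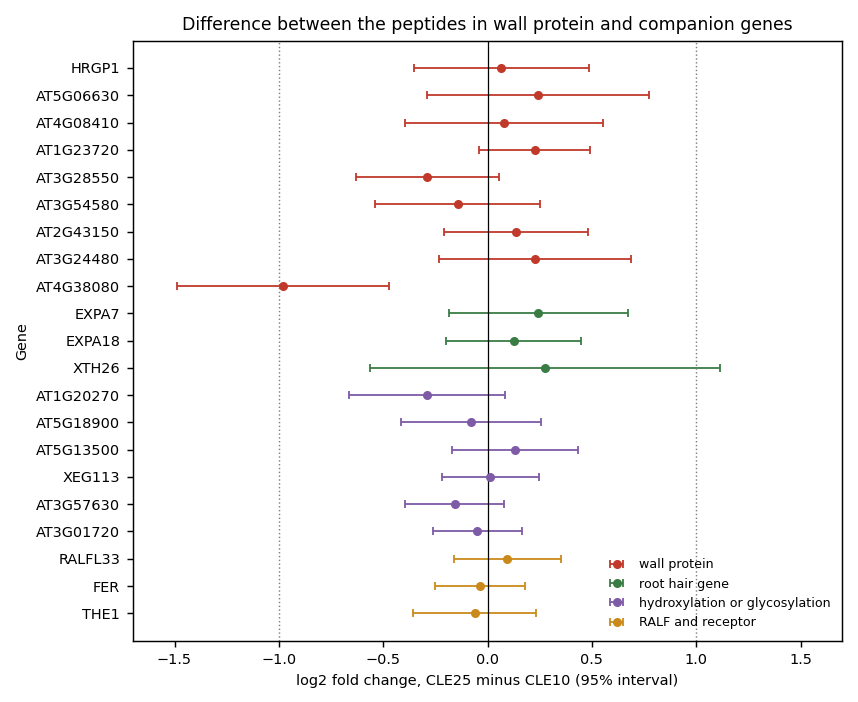
Log2 fold change of CLE25 minus CLE10 with its 95% confidence interval for the 9 tested wall protein genes and for tested genes of root hairs, of proline hydroxylation and glycosylation, and of RALF signalling. Dotted lines mark 2-fold either way, and the interval of AT4G38080 (-1.49 to -0.47) is the one that does not cross 0.

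The other 8 tested genes had intervals that all included 0. Their 95% intervals all lay inside 2-fold either way, between a log2 fold change of -0.63 and 0.77, and across all tested probe sets the interval lay inside 2-fold in 98.7%. An interval inside 1.5-fold was reached by 5 of the 9 tested genes, against 81.5% of all tested probe sets.

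Variation between arrays of the same peptide was larger in these genes than in most probe sets. The residual SD on the log2 scale ran from 0.178 in AT1G23720 to 0.471 in AT5G06630, and it was above the median of all tested probe sets (0.165) in 9 of 9 genes. It was above the 90th percentile (0.313) in 5 of 9: AT5G06630, AT4G38080, AT4G08410, HRGP1 and AT3G24480. Among probe sets with a mean signal of at least 1000, the median was 0.128 and the 90th percentile 0.239. Of the 5 wall protein genes this bright, 4 were above that percentile. These are descriptions of the arrays, and members of a family are not independent of each other.

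HRGP1, AT4G08410 and AT5G06630 differed from array to array in much the same way. In all 3 genes the CLE25 array of replicate 3 was the highest and that of replicate 2 the lowest with CLE25, and replicate 1 was the highest and replicate 2 the lowest with CLE10. The mean deviation of the 3 genes from their own averages, in log2, was -0.09, -0.24 and 0.53 on the CLE25 arrays of replicates 1 to 3, against 0.29, -0.50 and 0.02 on the CLE10 arrays. The spread within a peptide, an SD of 0.41 with CLE25 and 0.40 with CLE10, was larger than the gap between the group means of 0.06 and -0.06. All 3 probe sets, and that of AT1G23720, are of the array maker's _x_at class, whose probes can match other transcripts. Such a signal may hold RNA of like extensins, and the 3 values are not independent. This class held 4 of the 9 tested genes, all with a log2 fold change above 0, and the 5 tested genes with probe sets of the plain class had 2 above 0 and a median of -0.14.

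Root hair genes outside these families were set beside them, from a list of 18 of which 3 were measured, all of them bright enough to be tested. The expansins EXPA7 and EXPA18 loosen walls of root hair cells, and XTH26 is a xyloglucan endotransglucosylase, an enzyme that cuts and rejoins wall polymers. XTH26 had signals of 1173, 929 and 2737 with CLE25, against 1371, 676 and 1815 with CLE10. As in HRGP1, AT4G08410 and AT5G06630, the CLE25 array of replicate 3 was the highest and the CLE10 array of replicate 2 the lowest with their peptide, and this held for EXPA7 and EXPA18 too. AT3G54580 had the same order at these places. Replicate 3 was the highest CLE25 array in 7 of the 9 tested wall protein genes, against 29.7% of all tested probe sets. At other places the orders differed. Replicate 1 was the highest CLE10 array in 7 of the 9, against 32.3% of all, but replicate 3 was in the 3 root hair genes. Replicate 1 was the lowest CLE25 array in 5 of the 9, against 33.4% of all, but replicate 2 was in the 3 root hair genes. The mean deviation of the 3 root hair genes was -0.04, -0.33 and 0.70 on the CLE25 arrays of replicates 1 to 3, against -0.04, -0.50 and 0.21 on the CLE10 arrays. On the CLE10 array of replicate 1 the sets differed, with -0.04 in root hair genes and 0.29 in the 3 extensins. The part of root hair content in the extensin signals was not tested.

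**Figure D3:**
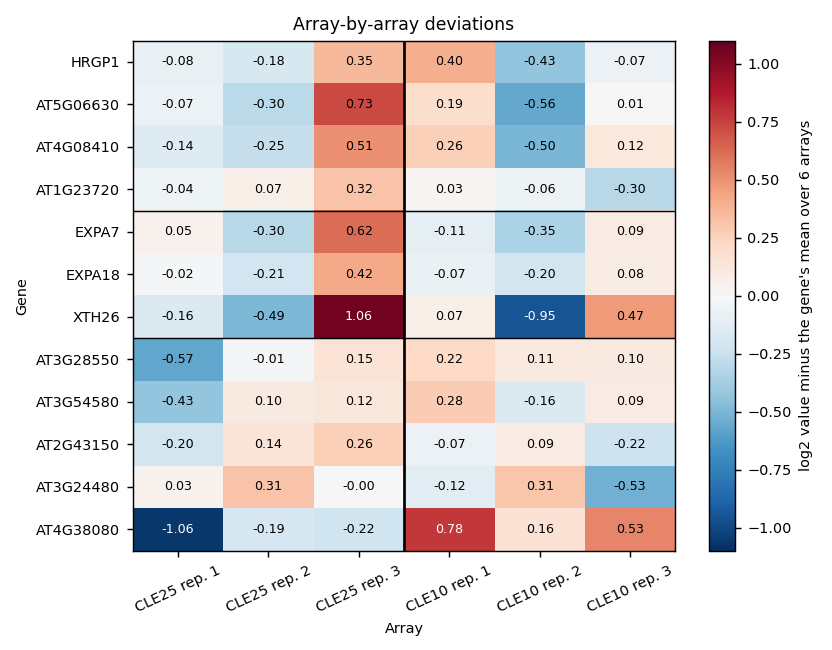
Log2 value minus the gene's own mean over the 6 arrays, for extensins with _x_at probe sets (top), 3 root hair genes (middle) and the other tested wall protein genes (bottom), with CLE25 arrays left of CLE10 arrays. Replicate 3 is the highest CLE25 array throughout the top and middle blocks, up to 1.06 in XTH26, and also in AT2G43150, AT3G28550 and AT3G54580 of the bottom block. CLE25 replicate 1 is lowest in AT4G38080, at -1.06.

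Between the peptides, the root hair genes had small differences of one sign, which leaned on a single array. In each gene the CLE25 array of replicate 3 was the highest of all arrays, and no other CLE25 array lay above the CLE10 range. The log2 fold change was 0.24 ± 0.20 for EXPA7, 0.13 ± 0.15 for EXPA18 and 0.27 ± 0.38 for XTH26, and 0 of the 3 passed in limma. Of 7 root hair transcription factors on a further list, 1 was measured, AT2G14760, and it was dim. Its signals were 2.93, 11.1 and 4.46 with CLE25, against 2.50, 2.37 and 1.13 with CLE10, without overlap but far under the limit for testing. Groups without overlap and CLE25 higher were seen in 4.67% of all tested probe sets, and no such share was taken over dim ones.

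LRR-extensins of vegetative tissues, which bind RALF peptides in the wall, held 5 loci, of which 4 were measured and 1 was tested. That gene, AT3G24480, had signals of 184, 224 and 179 with CLE25, against 164, 224 and 122 with CLE10. The arrays overlapped, the highest value was about equal with both peptides, and a low CLE10 array of replicate 3 set the group means of 196 ± 24.7 and 170 ± 50.9 apart (CLE25 and CLE10, SD, n = 3 arrays each). The log2 fold change was 0.23 ± 0.21 (limma adjusted p = 0.999), and on leaving out 1 array it ran from 0.02 (without that array) to 0.44 (without the CLE10 array of replicate 2).

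The other vegetative LRR-extensins were dim. AT4G18670 had signals of 45.3, 105 and 72.5 with CLE25, against 91.2, 87.9 and 88.7 with CLE10. Its CLE10 arrays were nearly equal, and its CLE25 arrays lay on both sides of them. AT3G22800 had 78.6, 84.6 and 44.6 with CLE25, against 49.0, 50.6 and 53.7 with CLE10, again with close CLE10 arrays and spread CLE25 arrays. AT5G25550 was dimmer, from 5.04 to 33.2 over the 6 arrays, with overlap.

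The 4 LRR-extensins of pollen were all measured and all dim, between signals of 0.834 and 51.4. AT1G49490 had 28.5, 26.3 and 51.4 with CLE25, against 30.1, 27.2 and 24.1 with CLE10. AT2G15880 had 4.27, 3.11 and 16.5 with CLE25, against 12.8, 32.6 and 5.58 with CLE10. In both genes the arrays of the peptides overlapped.

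AT4G33970 had signals of 1.64, 0.980 and 23.9 with CLE25, against 20.3, 2.88 and 1.17 with CLE10, one array of each peptide well above the rest. AT3G19020 had 19.9, 20.6 and 3.73 with CLE25, against 2.78, 0.834 and 1.11 with CLE10, and its groups did not overlap. This was 1 of the 10 dim wall protein genes, while the share over all tested probe sets was 9.18%. No such share was taken over dim probe sets. The signals of AT3G19020 lay far under the limit for testing, where no fold is given. The pollen receptor kinases ANX1 and ANX2, the measured pair of a list of 6 pollen genes, were also dim, from 1.57 to 27.9.

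**Figure D4:**
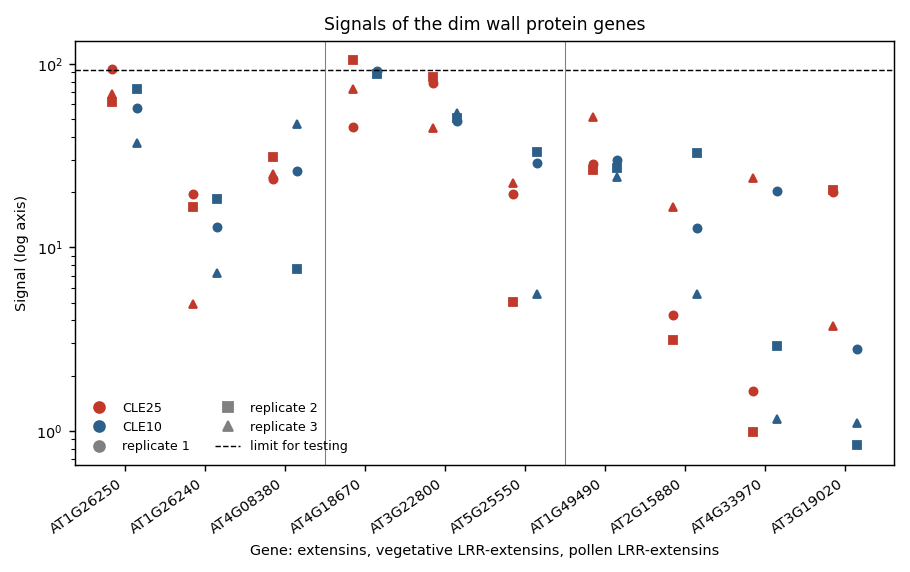
Linear signal on a log axis of the 10 dim wall protein genes on each array, grouped as classical extensins, vegetative LRR-extensins and pollen LRR-extensins, with CLE25 (red) left of CLE10 (blue) and the limit for testing as a dashed line at a signal of 92.3. The pollen genes lie at 51.4 and below, and AT3G19020 is the gene in which the peptides do not overlap.

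Of the classical extensins, 3 were dim. AT1G26250 had signals of 93.9, 61.8 and 68.7 with CLE25, against 57.1, 72.4 and 37.0 with CLE10, with overlap. Its neighbour on chromosome 1, AT1G26240, was between 4.93 and 19.5 on all 6 arrays, and AT4G08380 between 7.59 and 46.9. Neither gene had groups without overlap.

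The other 16 loci had no one-gene probe set and were not analysed here. They include the root hair LRR-extensins LRX1 and LRX2, the vegetative LRX3, the extensins EXT3, EXT4, EXT6, EXT10, EXT11, EXT12 and EXT13, and AT4G08400. They also include the proline-rich proteins PRP1, PRP2, PRP3 and PRP4 and the proline-rich protein-like gene MOP10. One more probe set is annotated with AT4G08400 and AT4G08410 together and was not used for either. AT4G38080 was thus the only measured member of the proline-rich and related class of 6.

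Enzymes that modify extensins were taken from a list of 15 genes, of which 6 were measured and tested. Of these, 2 were higher and 4 lower with CLE25, none past limma's threshold, and the median log2 fold change was -0.06. AT1G20270, a prolyl 4-hydroxylase, had signals of 239, 323 and 199 with CLE25, against 302, 316 and 298 with CLE10. The CLE25 arrays spread to both sides of the tight CLE10 arrays, and the log2 fold change was -0.29 ± 0.17. AT3G57630, a glycosyltransferase of extensin arabinosylation, had -0.16 ± 0.11.

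Signalling through LRR-extensins runs over RALF peptides and the receptor kinase FERONIA, and 3 of 11 listed genes were measured and tested. The log2 fold changes were 0.09 ± 0.12 for the RALF gene RALFL33, -0.06 ± 0.13 for the receptor kinase gene THE1 and -0.04 ± 0.10 for FER. FER, the receptor of RALF peptides, had signals of 2231, 1888 and 2119 with CLE25, against 2118, 2177 and 2086 with CLE10, and the arrays overlapped. The list of arabinogalactan and glycine-rich wall proteins, with 13 genes, had 0 measured members.

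Markers of other tissues gave few values. LHCB4.1 of green tissue, 1 of 6 listed genes, had signals of 129, 105 and 40.2 with CLE25, against 123, 91.9 and 148 with CLE10, a log2 fold change of -0.49 ± 0.35. Of the mature xylem list, 1 of 6 genes was measured, GUT2, with 0.09 ± 0.13. Of the root meristem list, 3 of 6 were measured, with log2 fold changes from -0.25 to 0.24. The highest belonged to the mitotic kinase AUR1, whose groups did not overlap, as in 4.67% of all tested probe sets with CLE25 higher. BBM (-0.25) and AUR2 (-0.04) were lower with CLE25, with overlap. Of the tested genes on these companion and marker lists, 0 passed limma's threshold and 0 had an unadjusted p under 0.05. The lists of non-hair epidermis and root cap, 4 genes each, had 0 measured members.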

How the data were processed

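Total RNA of root tips was labelled with biotin as cRNA and hybridised to 1-colour arrays, per the labels' protocols. The deposited table holds each array's intensity per probe set on a linear scale. GCOS 1.4 is named in the submitters' processing notes. Its settings, and a genome build, were not given in the sources used here. They were used as deposited, since trimmed means differed by under 5%. Of 22810 probe sets, 64 controls were left out. Gene names are those of the platform annotation, brought up to date by gene ID in the TAIR10.1 table: 13513 probe sets named 1 gene, 503 several, and 8730 had no name here.

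Values were log2(signal + 6.03), the 10th percentile, and probe sets under the 40th percentile of mean log2 value (6.62) were left out. The peptides were compared with limma 3.58.1 in R 4.3.3 (lmFit, eBayes with a trend, Benjamini-Hochberg over 13648 probe sets, no replicate block). The brightest one-gene probe set stood for a gene. For arrays, their number limits the precision. Scripts were tested on simulated data.

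The members and lists were chosen with earlier results of these data known. Per-array signals were to be given for members without overlap, with an unadjusted p under 0.05, or among the 3 of highest mean signal in their class, and of each companion list the 2 tested genes of smallest p were to be named. Per-array signals of the members AT4G08410, AT3G28550, AT3G54580, AT2G43150 and AT1G26250 are printed beyond that rule. Other companion genes, and the companion genes whose per-array signals are printed, were chosen after their values were seen. Same-numbered arrays were not taken as pairs, because the labels do not say what the number marks. Alternatives were other pseudocounts, filters, normalization, variance trend, array weights, a replicate block, other probe-set choices and leaving out each array.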

Additional observations from a re-analysis of the deposited data

How the results depend on the processing

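Under the 15 alternatives, 0 wall protein genes passed limma's adjusted threshold. AT4G38080 stayed lower with CLE25 in all of them, from -1.15 (without CLE10 replicate 2) to -0.69 (without CLE25 replicate 1), with a limma adjusted p of 0.476 to 0.99998. The direction follows from the separate groups of this gene. The higher pseudocount, the 40th percentile, gave -0.75. Of the probe sets tested, 575 had an unadjusted p under 0.05. That count was 980 with no filter (22746 tested), 362 with the filter at the 60th percentile (9099 tested), and, when 1 array was left out, between 358 (CLE10 replicate 1 out) and 889 (CLE25 replicate 2 out). Calls over all probe sets were 0 to 0 on leaving out an array. Wall protein genes with an unadjusted p under 0.05 were 2 with no filter, which adds AT3G19020, and 1 to 2 on leaving out an array. Genes higher with CLE25 were 12 of 19 with no filter, 2 of 5 with only probe sets without a shared-sequence suffix, and 3 (without CLE25 replicate 3) to 7 (without CLE25 replicate 1) of 9 on leaving out an array. The median log2 fold change ran from -0.13 (without CLE10 replicate 2) to 0.22 (without CLE10 replicate 1). It was -0.0056 with array weights and -0.14 without the suffixed probe sets.

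Signs turned in 4 genes. With array weights HRGP1 was -0.0056 and AT4G08410 -0.018. On leaving out an array HRGP1 ran from -0.13 to 0.28, AT4G08410 from -0.16 to 0.23, AT5G06630 from -0.061 to 0.45 and AT3G54580 from -0.26 to 0.036. The causes were not tested. The mean over all one-gene probe sets equalled the brightest one, since each gene had 1. With a replicate block 1 probe set was called over all, none of the wall protein genes, and the median stayed at 0.08. The block gave 814 probe sets (5.96%) with an unadjusted p under 0.05 in limma, and the lowest limma adjusted p of AT4G38080, 0.476. Deviations of same-numbered arrays from their group means correlated at 0.08, 0.14 and 0.22. The best match of an array in the other peptide had its own number. All these matches were read from the same few correlations and are not independent, so they cannot decide whether the arrays are pairs. Low signal limits the 10 dim genes.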
